A study of Mus musculus with 2 samples.

Results

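The cells described here are neutrophils of the aneurysmal mouse abdominal aorta that carried few transcripts of S100a8 and S100a9. Cells were taken as neutrophils when a UMI (unique molecular identifier, each counting 1 captured transcript) was seen for at least 3 of the 8 genes Csf3r, Cxcr2, Il1r2, S100a8, S100a9, Mmp9, Hdc and Acod1, with at most 2 UMIs of C1qa, C1qb and C1qc together and at most 2 of Col3a1. Cells were then selected on their measured calprotectin transcripts. The 2539 neutrophils were ranked by the share of their UMIs that came from S100a8 and S100a9, both libraries together, and the lower 2/3 were taken. This gave 1692 cells of 16403 kept in all, 832 from the Gsdme-KO library and 860 from the WT library, and the remaining 847 neutrophils (437 and 410) are called S100a8/a9-high. Single-cell RNA profiles had been made with the BD Rhapsody platform from aortas in which an aneurysm was induced with PPE (porcine pancreatic elastase, which degrades elastin). The Gsdme-KO library came from mice lacking Gsdme throughout the body and the WT library from C57BL/6J mice, and both received PPE. Gsdme encodes gasdermin E, which forms pores in the plasma membrane once a protease has cut it. Each group is 1 library. How many mice it holds, their age and sex, the time after PPE and the strain that carries the deletion are not stated in the labels.

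Neutrophils are short-lived phagocytes that leave the bone marrow, circulate and enter inflamed tissue, and they are among the first cells to reach an elastase-injured vessel wall. S100a8 and S100a9 encode the subunits of calprotectin, a calcium- and zinc-binding protein that fills the cytosol of blood neutrophils and is released in inflammation. Their transcripts are abundant, with those of granule proteins such as Lcn2, Ltf and Mmp8, in neutrophils that have recently left the marrow. Cells that have been activated in tissue transcribe cytokine genes such as Il1b, Tnf and Cxcl2.

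In all, 52532964 UMIs in 9034 barcodes were deposited for Gsdme-KO and 38988898 in 7736 for WT. The 2 libraries shared 73 barcodes. Of the cells described, 6 in each library had a barcode that also occurred in the other library, and no pair of them matched each other. Their median depth was 1726 UMIs in Gsdme-KO and 1769.5 in WT, against 1471 and 1639.5 in S100a8/a9-high neutrophils, and the median mitochondrial share was 0.684% in Gsdme-KO and 0.526% in WT. Levels are given as CPM, the UMIs of a gene summed over the cells of a library and scaled to a total of 1000000. No difference between the libraries can be set against a replicate, and no p-value is given. Intervals are at 95% and hold the error of counting alone, not that of the genotypes. Those of levels and ratios take each UMI as independent. They leave out the spread between cells and can be too narrow even for these libraries.

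The share of UMIs from S100a8 and S100a9 fell off smoothly in both libraries, with no gap at the cut. The last cells inside the cut had shares of 0.648929%, 0.648686% and 0.648508%, and the first outside had 0.652938%, 0.653924% and 0.654253%. No UMI of either gene was seen in 158 cells of Gsdme-KO (19.0%) and 132 of WT (15.3%). The median share was 0.177% in Gsdme-KO and 0.199% in WT, against 1.14% and 1.18% in S100a8/a9-high neutrophils.

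**Figure D1:**
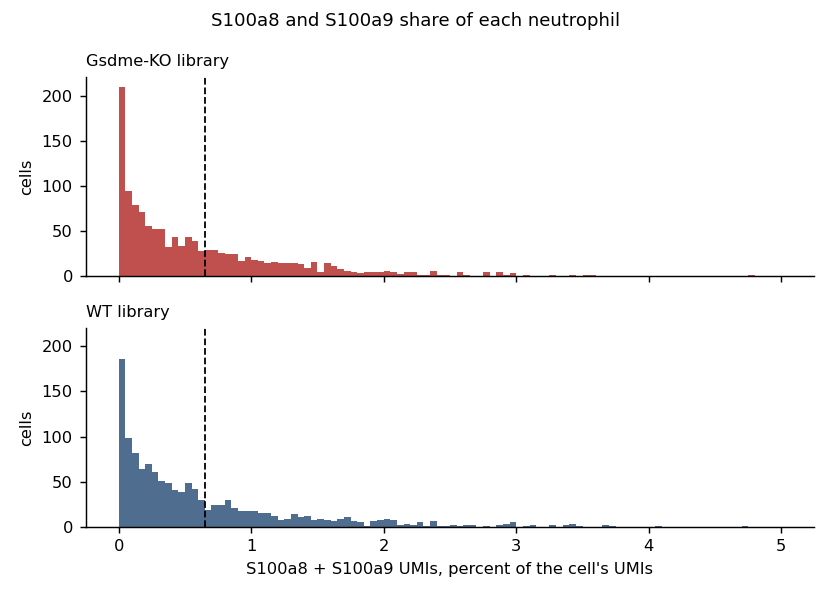
Share of each neutrophil's UMIs from S100a8 and S100a9 (x axis, percent) against the number of cells (y axis), in Gsdme-KO above and WT below, in bins of 0.05%. The dashed line is the cut at 0.648929%, which falls on a continuous slope with no gap in either library.

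The label was checked against its own markers. The 6 markers that came with it are Il23a (a subunit of interleukin 23), Hcar2 (a receptor for hydroxybutyrate and niacin), Il1r2 (a decoy receptor for interleukin 1), Mmp9 (gelatinase B), Acod1 (the enzyme that makes itaconate) and Cxcr2 (the receptor for CXCL chemokines that draw neutrophils). Acod1, Cxcr2, Il1r2 and Mmp9 were among the genes that selected the cells, so Il23a and Hcar2 are the markers left to check. After each cell was thinned to 1000 UMIs, Il23a was seen in 37.4% of the Gsdme-KO and 34.3% of the WT cells described, against 0.949% and 0.874% of fibroblasts. Hcar2 was seen in 40.8% and 43.3%, against 0.854% and 1.11% of fibroblasts. Thinning left out 78 Gsdme-KO and 81 WT cells, and unthinned shares were 41.9% and 39.4% for Il23a and 51.1% and 53.3% for Hcar2. Unthinned fibroblasts were far deeper, with medians of 8639 UMIs in Gsdme-KO and 7788 in WT. Ly6g, the surface antigen used to sort mouse neutrophils, had 3 UMIs in Gsdme-KO and 3 in WT. It was rare in S100a8/a9-high neutrophils too, seen in 2 of 437 Gsdme-KO and 6 of 410 WT cells, so it does not tell the groups apart.

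The markers did not set the S100a8/a9-low cells apart from the S100a8/a9-high ones. Acod1, Cxcr2, Il1r2, Mmp9 and the calprotectin pair were used in the selection, so these values are a description. Cxcr2 stood at 1082 CPM in Gsdme-KO and 912 in WT in the S100a8/a9-low cells, against 2675 and 2049 CPM in S100a8/a9-high ones. Acod1 stood at 3842 and 3509.9 CPM, against 6979 and 7116. Il23a stood at 859 and 918 CPM, against 1115 and 1203. Hcar2 and Il1r2 were also lower in both libraries, with low-over-high ratios of 0.595 in Gsdme-KO and 0.554 in WT for Hcar2 and of 0.793 in Gsdme-KO and 0.915 in WT for Il1r2. Mmp9 was level, at 629.7 and 732 CPM against 588 and 758. So 5 of the 6 label markers were lower, not higher, in the S100a8/a9-low cells.

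**Figure D2:**
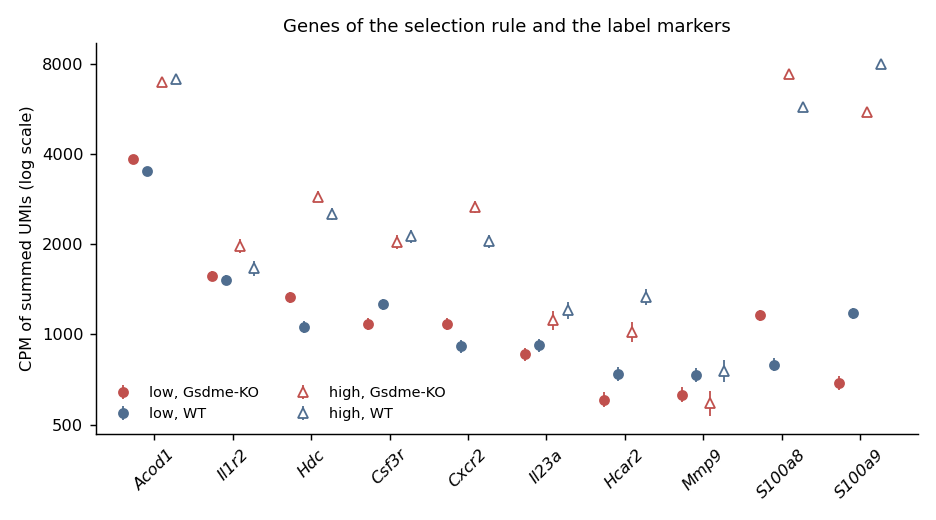
CPM of summed UMIs on a log axis for the 8 genes of the selection and the 2 remaining label markers. Filled circles are S100a8/a9-low and open triangles S100a8/a9-high neutrophils, red for Gsdme-KO and blue for WT, with exact Poisson 95% intervals, and every gene except Mmp9 is lower in the S100a8/a9-low cells of both libraries.

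Cells in which markers of other types were seen were more frequent below the cut, in shares not corrected for the greater depth there. At least 3 markers of some other cell type were seen in 257 of the S100a8/a9-low cells of Gsdme-KO (30.9%) and 296 of WT (34.4%), against 18.1% and 27.3% of S100a8/a9-high cells. Those cells held 48.3% of all S100a8/a9-low UMIs in Gsdme-KO and 49.1% in WT. At least 3 of 14 macrophage markers were seen in 15.6% in Gsdme-KO and 22.8% in WT, and at least 3 of 8 fibroblast markers in 17.4% and 15.1%. Summed macrophage markers stood at 1395 and 1664 CPM, against 719 and 1024 CPM in S100a8/a9-high cells. Summed fibroblast markers went the other way, at 854 and 798 CPM against 964 and 946 CPM. Both sums are partly set by the selection, which capped C1qa, C1qb and C1qc of the macrophage list and Col3a1 of the fibroblast list. For monocyte markers the shares were 6.73% and 6.86%, and their summed level was 1857 and 1646 CPM, against 476 and 476 CPM in S100a8/a9-high cells. B cell markers summed to 1884 CPM in Gsdme-KO and 106 in WT, with at least 3 of 7 in 6 and 4 cells. Ighm, the heavy chain gene of immunoglobulin M, was the 1 gene of that list past 1.5-fold (1784 CPM in Gsdme-KO and 48.7 CPM in WT). Exactly 3 of the 8 selection genes were seen in 139 and 124 cells, and 53 and 51 cells over 5000 UMIs held 23.4% of the UMIs in Gsdme-KO and 19.0% in WT.

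A stricter subset was therefore set beside many of the values. It kept cells with at least 5 of the 8 selection genes and under 3 markers of every other cell type, 427 in each library, and was chosen after the data were seen. Cells with little S100a8 and S100a9 can pass this filter only with most of the other 6 selection genes, so the levels of those genes in the subset are not read. The filter also removes cells by their markers of other cell types, so lower sums of those markers in the subset follow from it. Of the label markers outside the selection, Il23a had low-over-high ratios of 1.12 in Gsdme-KO and 0.954 in WT, and Hcar2 of 0.866 in Gsdme-KO and 0.704 in WT.

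Set against all kept cells that were not neutrophils by the rule, the 12 genes with the highest ratios were Cxcr2, Amer2, H2-Q10, Il1f9, Siglecf, Il23a, G0s2, Hcar2, Hdc, Il1r2, Acod1 and Mirt2. Cxcr2, Hdc, Il1r2 and Acod1 are selection genes, so their place among these follows from the selection and is not a result. Il1f9, which encodes interleukin 36 gamma, stood at 834 CPM in Gsdme-KO and 719 in WT, against 12.2 and 15.7 CPM in all other cells. G0s2, an inhibitor of the lipase that opens triglyceride stores, stood at 196 and 221 CPM, against 3.83 and 6.26. Siglecf, a sialic acid receptor best known on eosinophils, stood at 88.03 and 111 CPM, against 2.22 and 2.21. After thinning it was seen in 9.28% and 10.1% of the cells and in 0.0475% and 0.0795% of fibroblasts. S100a8/a9-high neutrophils carried it too, in 7.397% and 5.54%. The eosinophil granule gene Epx was at 0 in both libraries, but other eosinophil markers were seen. Without Siglecf, the 7 eosinophil markers summed to 47.5 CPM in Gsdme-KO and 42.2 CPM in WT. Their sums in S100a8/a9-high cells were 2.91 and 8.25 CPM. At least 3 of the 7 were seen in 0 Gsdme-KO and 2 WT cells of those described. The most abundant cytokine gene among those listed was Il1b (interleukin 1 beta), at 16508 CPM in Gsdme-KO and 17928 in WT. Cxcl2, a neutrophil attractant, stood at 13951 and 13340.2 CPM.

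Genes that differed between S100a8/a9-low and S100a8/a9-high neutrophils describe what the split separates. Both groups were drawn from the same ranking, so nothing is tested or read from the counts. Of 6361 genes with at least 30 UMIs and 10 CPM, 1572 (24.7%) were at least 1.5-fold higher and 231 (3.63%) at least 1.5-fold lower in the S100a8/a9-low cells of both libraries. The median log2 ratio over these genes was 0.37 in Gsdme-KO and 0.35 in WT. The 12 leading higher genes were Msr1, Ahnak, Ms4a6c, S100a4, Ccr2, Ms4a6d, AI504432, Vcan, Ccl9, Ctss, Pld4 and Plac8. Several are genes of monocytes and macrophages. The scavenger receptor gene Msr1 stood at 145 CPM in Gsdme-KO and 183 in WT, against 11.6 and 20.6. Ccr2, the receptor that draws monocytes out of the marrow, stood at 312 and 245 CPM, against 29.1 and 50.9. In the stricter subset, on 7 and 8 UMIs of Msr1 and 7 and 6 of Ccr2, their low-over-high ratios were 0.705 in Gsdme-KO and 0.602 in WT for Msr1 and 0.411 in Gsdme-KO and 0.602 in WT for Ccr2. Ctss, which encodes cathepsin S, stood there at 0.982 in Gsdme-KO and 1.12 in WT. The summed monocyte markers in the subset were 411 CPM in Gsdme-KO and 263 in WT, against 491 and 366 CPM in S100a8/a9-high cells. These sums and the subset ratios of Ccr2 are shaped by the filter, which counts the same monocyte markers.

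The 12 leading lower genes were also lower in the subset, in both libraries. Besides S100a8 and S100a9 they were Lcn2, Mmp8, Retnlg, Fpr1, Wfdc21, Dgat2, Rdh12, Stfa2l1, Lrg1 and Slc27a4. Retnlg, a resistin-like gene of circulating neutrophils, stood at 106 CPM in Gsdme-KO and 53.5 in WT, against 669.8 and 443 CPM. Fpr1, a receptor for bacterial formyl peptides, stood at 263 and 185 CPM, against 1070.3 and 873. In the subset the ratios were 0.157 in Gsdme-KO and 0.157 in WT for Retnlg and 0.444 in Gsdme-KO and 0.264 in WT for Fpr1. In the subset 361 of 4118 genes (8.77%) were at least 1.5-fold higher and 129 (3.13%) lower, of which 239 and 91 were among those of all cells.

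The genes that led the subset in the higher direction included cytokine genes. They were Klhl6, Rhof, Dusp2, Havcr2, Tnf, Plau, Csf1, B4galt1, Hsp90aa1, Gngt2, Ppia and Mbnl1. Tnf stood in the subset at 5733 CPM in Gsdme-KO and 5854 in WT, against 3310.4 and 3128 CPM in S100a8/a9-high cells. Csf1, the growth factor of macrophages, had low-over-high ratios of 1.76 in Gsdme-KO and 1.99 in WT. Plau, the urokinase plasminogen activator, had 2.17 in Gsdme-KO and 2.22 in WT, and Havcr2, which encodes the receptor TIM-3, had 2.92 in Gsdme-KO and 2.01 in WT. Thbs1, which encodes thrombospondin 1, was among those lower, with 0.483 in Gsdme-KO and 0.477 in WT, as was the lysozyme gene Lyz2 (0.471 in Gsdme-KO and 0.3602 in WT). In all cells Lyz2 lay on the other side, at 1.58 in Gsdme-KO and 1.18 in WT.

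**Figure D3:**
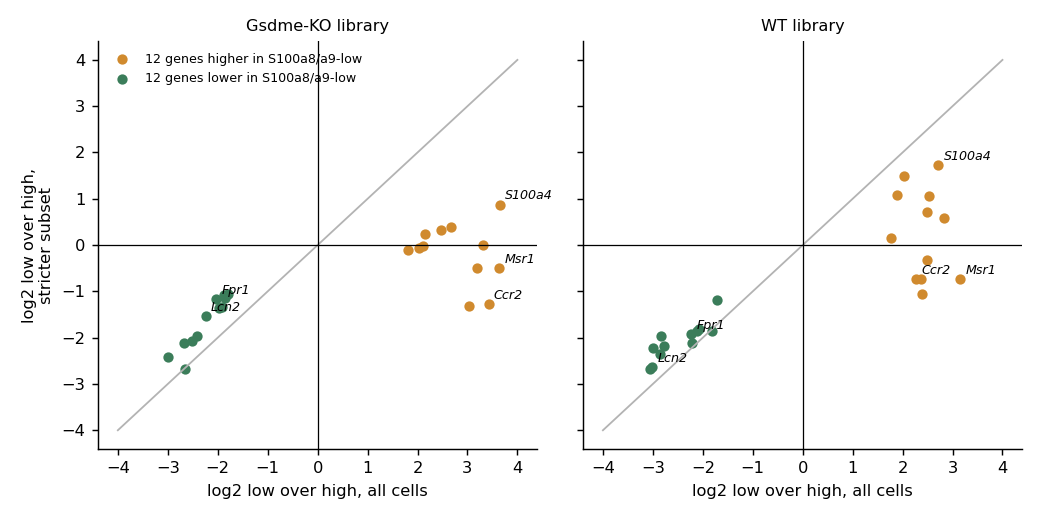
Log2 ratio of S100a8/a9-low over S100a8/a9-high neutrophils for the 12 leading higher genes (orange) and the 12 leading lower genes (green) of all cells, in Gsdme-KO on the left and WT on the right. The x axis uses all cells and the y axis the stricter subset of 427 S100a8/a9-low cells in each library, in which the green genes stay below 0 and most orange genes move towards or below it. Ccr2, Vcan and Plac8 are markers that the subset's filter counts, so their move is partly set by that filter.

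The levels also changed along the ranking. The 2539 neutrophils were cut into sixths by their S100a8/a9 share, of which sixths 1 to 4 hold the cells described. In sixth 1 at least 5 selection genes were seen in 36.7% of Gsdme-KO and 37.4% of WT cells, and at least 3 markers of another type in 47.8% and 55.1%. In sixth 4 the shares with at least 5 selection genes were 89.6% and 88.7%. Cxcr2, itself a selection gene, ran from 411 CPM in sixth 1 through 1043, 1568, 1978 and 2298 to 3079 CPM in sixth 6 of Gsdme-KO. Mmp9, also a selection gene, stood lowest in sixth 1, with 403, 789, 838, 709, 594 and 571 CPM from sixth 1 to 6 of Gsdme-KO. In WT it stood at 417 CPM in sixth 1 and 845 CPM in sixth 6.

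**Figure D4:**
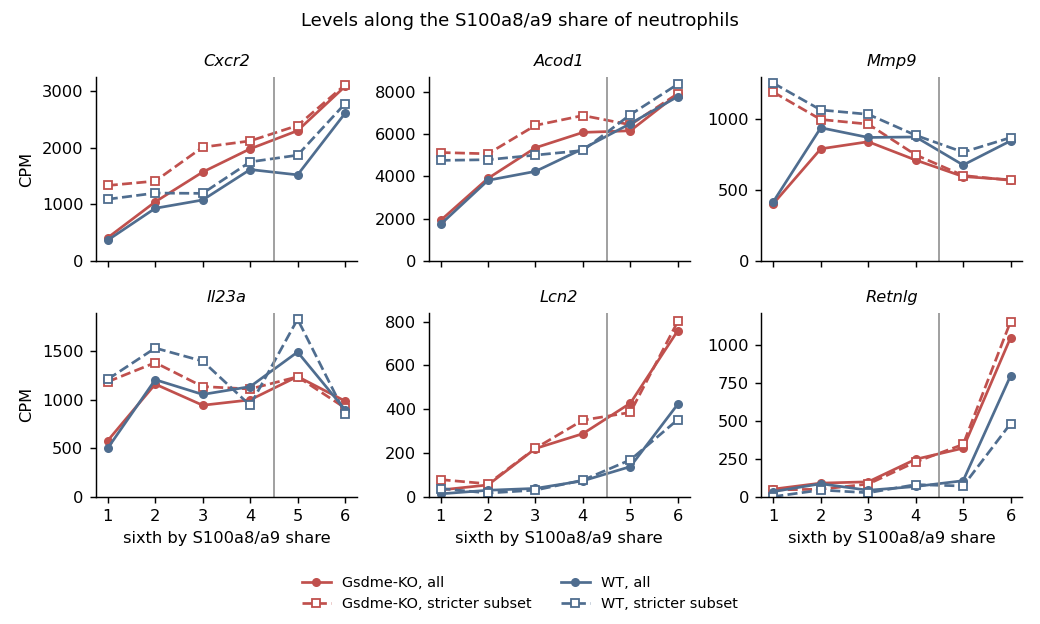
CPM of 6 genes in sixths of all neutrophils by S100a8/a9 share, sixth 1 being lowest. Red is Gsdme-KO and blue WT, solid lines are all cells and dashed lines the stricter subset, and the grey line after sixth 4 is the cut. Dashed levels of Cxcr2, Acod1 and Mmp9 are shaped by the subset's own filter, and Lcn2 is higher in Gsdme-KO than in WT in every sixth of all cells.

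The Gsdme-KO and WT libraries were then compared within the S100a8/a9-low cells, the comparison of the study's design. Gsdme (ENSMUSG00000029821, chromosome 6, 50188888 to 50263862, minus strand, mm10) stood at 10.8 CPM in Gsdme-KO and 16.04 CPM in WT, on 20 and 30 UMIs (ratio 0.673, 0.362 to 1.23). That interval holds 1. The ratio of Gsdme was 0.234 in the stricter subset and 0.314 without cells that held any UMI of C1qa, C1qb, C1qc or Col3a1, each on fewer UMIs. In all other kept cells, which here and below leave out S100a8/a9-high neutrophils, its ratio was 0.4503. Which exons were deleted is not stated in the labels, and transcripts from outside them check nothing. Its annotated span overlaps that of Mpp6 on the opposite strand.

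The cells described made up 9.47% of the Gsdme-KO cells (8.87 to 10.1) and 11.3% of the WT cells (10.6 to 12.02), a ratio of 0.839 (0.762 to 0.924). Without cells that held any UMI of C1qa, C1qb, C1qc or Col3a1 the ratio was 0.939 (0.823 to 1.07), an interval that holds 1. As a share of neutrophils they made up 65.6% (62.9 to 68.2) in Gsdme-KO and 67.7% (65.1 to 70.3) in WT, a ratio of 0.968 (0.879 to 1.07). S100a8/a9-high neutrophils made up 4.97% of the Gsdme-KO cells and 5.38% of the WT cells (ratio 0.924, 0.806 to 1.06). The cut was set on both libraries together, and shares of all cells also move with how many cells of other types each library held.

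In the cells described, S100a8 and S100a9 themselves stood in opposite order in the libraries. S100a8 (ENSMUSG00000056054, chromosome 3, 90668978 to 90670035, plus strand) stood at 1158 CPM in Gsdme-KO and 792 CPM in WT (ratio 1.46, 1.37 to 1.56), and S100a9 (ENSMUSG00000056071, chromosome 3, 90692632 to 90695721, minus strand) at 687 CPM in Gsdme-KO and 1176 CPM in WT (ratio 0.584, 0.545 to 0.627). Of the UMIs of both genes, S100a8 made up 62.8% in Gsdme-KO (61.1 to 64.4) and 40.2% in WT (38.6 to 41.8). This share was also higher in Gsdme-KO in S100a8/a9-high neutrophils (57.3% and 41.9%), macrophages (63.9% and 43.8%) and fibroblasts (56.9% and 47.0%). Over all other kept cells it was 60.8% in Gsdme-KO and 44.9% in WT. The summed level of both genes in the cells described, which the cut limits, was 1846 CPM in Gsdme-KO and 1968 CPM in WT. Outside neutrophils the summed level was lower in Gsdme-KO. It was 42.9 CPM against 84.1 CPM in WT in macrophages, and 41.7 against 87.1 CPM in fibroblasts. The share of S100a8 is thus no measure of its level there.

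Of 7793 genes compared, 724 (9.29%) were at least 1.5-fold higher and 630 (8.08%) at least 1.5-fold lower in Gsdme-KO, and the median log2 ratio was -0.03. In 505 and 402 of them the interval of the ratio did not hold 1. Counts over gene lists are to be read against these shares of all genes. The stricter subset gave 394 higher and 597 lower of 5090 genes, and counts over lists in the subset are to be read against these. Leading higher genes were Pkd1l2, Lcn2, Ccl6, Chil3, Il6, Mmp8, Sptbn1, Creb3l2, Pttg1, Clec4a2, Ifitm6, Rnf125, Bbip1 and Cd93, with ratios from 2.22 to 12.8. Leading lower genes were Vmn2r96, Tpm3-rs7, Depdc5, Zfp981, Slc22a4, Sntb2, Ppbp, F3, Pik3c3, Rufy3, Atg16l1, Vegfa, S100a9 and Tasor, with ratios from 0.00488 to 0.584. S100a9 is a selection gene and, summed with S100a8, sets the cut, so its place among these is not read as a result.

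Several genes of granule proteins and of recently released neutrophils stood higher in Gsdme-KO, while Mmp9, Ltf and Stfa2l1 did not. Lcn2, which encodes the iron-siderophore binder lipocalin 2 (ENSMUSG00000026822, chromosome 2, 32384633 to 32388252, minus strand), stood at 124 CPM in Gsdme-KO and 34.2 CPM in WT (ratio 3.61, 2.73 to 4.85). Its ratio was 2.12 in S100a8/a9-high neutrophils and 4.39 in all other cells. Mmp8, neutrophil collagenase, stood at 98.3 CPM in Gsdme-KO and 36.4 CPM in WT (ratio 2.704, 2.04 to 3.63), with 2.17 in S100a8/a9-high neutrophils and 0.697 in all other cells. Retnlg stood at 106 CPM in Gsdme-KO and 53.5 CPM in WT (ratio 1.99, 1.56 to 2.56). Cd177, a surface glycoprotein of neutrophils, stood at 26.5 CPM in Gsdme-KO and 11.8 CPM in WT (ratio 2.25, 1.33 to 3.91). Ifitm6 stood at 51.3 CPM in Gsdme-KO and 18.7 CPM in WT (ratio 2.74, 1.84 to 4.16), and its ratio in S100a8/a9-high neutrophils was 0.777. Chil3, a chitinase-like secreted protein gene, stood at 80.5 CPM in Gsdme-KO and 27.8 CPM in WT (ratio 2.89, 2.098 to 4.05). Chil3 is also a marker of monocytes, and in the stricter subset its ratio was 6.95.

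Over the list of immature and recently released neutrophils, 8 of 13 compared genes were at least 1.5-fold higher and 0 lower, against 9.29% and 8.08% of all genes compared, with a median log2 ratio of 0.99 and a summed CPM of 1262 in Gsdme-KO and 798 in WT (ratio 1.58, 1.48 to 1.69). Stfa2l1 and Ltf stood on the other side, with ratios of 0.847 and 0.857 and intervals that held 1. Of the 21 matched genes of the list 8 fell under the floor. In the list of secondary and tertiary granules 7 of 14 were higher and 0 lower (median 0.44), with a summed CPM of 4859 in Gsdme-KO and 4024 in WT (ratio 1.21, 1.17 to 1.25). Slpi, a protease inhibitor, stood at 299 CPM in Gsdme-KO and 189 CPM in WT, while Mmp9 stood at 629.7 CPM in Gsdme-KO and 732 CPM in WT (ratio 0.8603, 0.795 to 0.931). The lists share Lcn2, Mmp8, Chil3, Cd177, Pglyrp1, Ngp, Camp and Ltf. In the subset the summed ratios were 1.85 and 1.32, and in S100a8/a9-high neutrophils 1.41 and 1.16. Monocyte markers summed to 1857 CPM in Gsdme-KO and 1646 CPM in WT, and their part in these differences was not tested. Within the sixths, Lcn2 stood at 30.3, 53.4, 219.8 and 288 CPM in sixths 1 to 4 of Gsdme-KO, against 12.7, 29.1, 37.5 and 72.2 CPM in those of WT.

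Part of the interferon response genes stood lower in Gsdme-KO. Of 43 compared genes of the type I interferon list 14 were at least 1.5-fold lower and 1 higher, against 8.08% and 9.29% of all genes compared (median log2 -0.34), with a summed CPM of 3620.5 in Gsdme-KO and 4366 in WT (ratio 0.829, 0.803 to 0.857). Ifit1, which binds viral RNA (ENSMUSG00000034459, chromosome 19, 34640871 to 34650009, plus strand), stood at 36.7 CPM in Gsdme-KO and 89.8 CPM in WT (ratio 0.409, 0.304 to 0.545). Ifit3, its partner gene (ENSMUSG00000074896, chromosome 19, 34583531 to 34588731, plus strand), stood at 17.8 CPM in Gsdme-KO and 56.1 CPM in WT (ratio 0.317, 0.208 to 0.473). In all other kept cells the ratios were 0.6605 for Ifit1 and 0.533 for Ifit3. Other genes of the list were closer to level. Isg15, a ubiquitin-like modifier gene, stood at 35.1 CPM in Gsdme-KO and 37.4 CPM in WT (ratio 0.938, 0.659 to 1.33), and Slfn4, the most abundant of the list, at 840.3 CPM in Gsdme-KO and 906 CPM in WT (ratio 0.928, 0.866 to 0.995). Ifi213 was the 1 gene past 1.5-fold in the higher direction (ratio 1.55), and its interval held 1.

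Few of the cells carried Ifit1, while most carried some UMI of the list. After thinning, a UMI of Ifit1 was seen in 1.46% of the Gsdme-KO and 2.95% of the WT cells, against 3.19% and 3.48% of T cells. T cells can express the gene, so their share is no measure of free RNA. It rests on 6 of 188 Gsdme-KO cells (1.18 to 6.82%) and 7 of 201 WT cells (1.41 to 7.04%). The shares of the cells described were lower in both libraries but within those intervals. The 5% of cells richest in the list's UMIs held 39.5% of them in Gsdme-KO and 43.7% in WT. Without those cells the summed level was 2436 CPM in Gsdme-KO and 2680 CPM in WT. Macrophage markers, among them C1qa, C1qb and C1qc that the selection capped, stood lower too, at 1395 CPM in Gsdme-KO and 1664 CPM in WT. They stood at 516 and 723 CPM in the stricter subset, and their part in the difference was not tested. In that subset 12 of 34 genes were lower, against 597 of all 5090 compared there, with a summed ratio of 0.829. In S100a8/a9-high neutrophils the summed ratio was 0.791. The summed level was lower in Gsdme-KO outside neutrophils too. It was 2932 CPM against 4002 CPM in WT in T cells and 2767 against 3281 CPM in fibroblasts. Macrophages were closer to level, at 4415 against 4553 CPM. Of the interferon gamma list 5 of 14 were lower and 1 higher (median -0.48). Gbp2, a guanylate-binding protein gene, stood at 35.6 CPM in Gsdme-KO and 75.4 CPM in WT (ratio 0.473, 0.347 to 0.638), and its ratio was 0.936 in all other cells. Irf1 stood at 588 CPM in Gsdme-KO and 739.9 CPM in WT (ratio 0.794, 0.733 to 0.8603).

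The promoters of 2 lower genes and of Isg15, which was level, are shown because all 3 hold the core of the interferon-stimulated response element, a site bound by transcription factors of the interferon response. Each runs 5′ to 3′ from 250 bases before to 50 after the annotated start, from RefSeq on GRCm38.p6. Capitals mark its core, TTTC, any 2 bases and TTTC again, on either strand, with overlapping matches in Isg15 joined.
Ifit1 (chr19:34640639-34640938, plus strand): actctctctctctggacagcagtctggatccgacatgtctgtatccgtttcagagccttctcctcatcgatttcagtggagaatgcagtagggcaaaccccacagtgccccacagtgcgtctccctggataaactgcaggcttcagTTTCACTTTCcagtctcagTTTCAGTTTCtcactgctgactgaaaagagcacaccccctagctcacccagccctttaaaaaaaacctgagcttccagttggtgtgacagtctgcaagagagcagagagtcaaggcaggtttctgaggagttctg
Ifit3 (chr19:34583279-34583578, plus strand): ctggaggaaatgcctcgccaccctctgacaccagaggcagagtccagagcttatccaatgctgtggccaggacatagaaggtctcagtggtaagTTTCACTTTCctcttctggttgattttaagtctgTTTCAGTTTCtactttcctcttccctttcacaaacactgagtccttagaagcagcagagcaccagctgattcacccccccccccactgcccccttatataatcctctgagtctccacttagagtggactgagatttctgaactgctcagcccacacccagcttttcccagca
Isg15 (chr4:156200769-156201068, minus strand): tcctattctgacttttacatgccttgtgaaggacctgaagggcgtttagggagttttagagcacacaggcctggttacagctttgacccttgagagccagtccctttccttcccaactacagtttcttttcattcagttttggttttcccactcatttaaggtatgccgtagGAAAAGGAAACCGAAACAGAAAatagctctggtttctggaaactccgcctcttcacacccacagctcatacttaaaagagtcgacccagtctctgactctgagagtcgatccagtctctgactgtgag
The matches in Ifit1 begin at positions -104 and -85 from the annotated start, and those in Ifit3 at -156 and -122. The core was found in the promoters of 20 of the 34 compared interferon genes with a promoter in the table (58.8%), against 3.99% of all 27025 genes with one. Of the 11 such genes that were at least 1.5-fold lower 4 held it (36.4%), Ifit1, Ifit3, Ifit3b and Oas3. That share is below the 58.8% of the compared list, so the core did not mark out the lower genes. A match in these windows is a description and does not show binding.

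**Figure D5:**
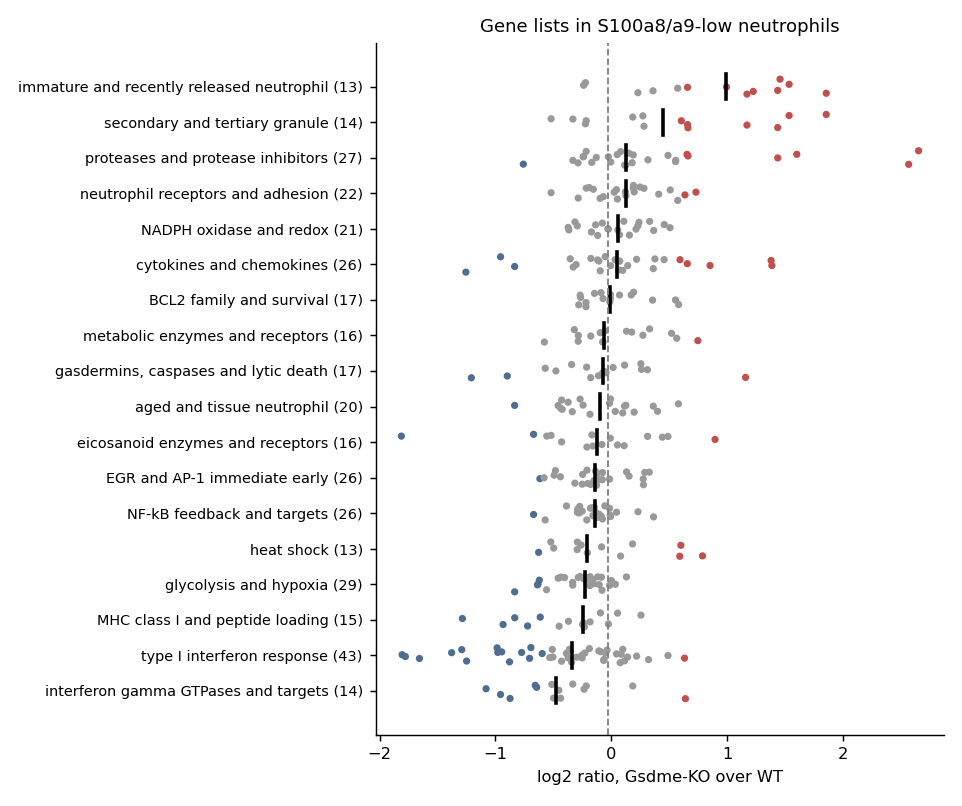
Log2 ratio of Gsdme-KO over WT in S100a8/a9-low neutrophils, 1 point per compared gene, for the 18 lists with at least 5 compared genes (number in brackets). Red points are at least 1.5-fold higher and blue points at least 1.5-fold lower, black bars are list medians, and the dashed line is the median of all 7793 genes, at -0.03. The list of immature neutrophils has the highest median and that of interferon gamma targets the lowest.

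Cytokine genes stood on both sides. Of 26 compared, 5 were at least 1.5-fold higher (Il6, Ccl6, Hbegf, Ccl2 and Lif) and 3 lower (Ccl5, Cxcl16 and Vegfa), and the summed level was 48939 CPM in Gsdme-KO and 49968 CPM in WT. Ccl6, a chemokine, stood at 638 CPM in Gsdme-KO and 245 CPM in WT (ratio 2.599, 2.33 to 2.901). Il6 stood at 148 CPM in Gsdme-KO and 56.7 CPM in WT (ratio 2.61, 2.08 to 3.299), and it was seen in 6.73% of the Gsdme-KO and 5.12% of the WT cells, against 3.14% and 5.34% of T cells, whose median depths were 2787 and 2732 UMIs, so that in WT the share was not above that of T cells. With at least 4 selection genes its ratio was 1.46. Vegfa, the vascular growth factor gene, stood at 355 CPM in Gsdme-KO and 634 CPM in WT (ratio 0.561, 0.509 to 0.618), and its ratio was 0.706 in all other cells. It was under 1.5-fold with at least 4 selection genes (0.675) and without cells holding any UMI of C1qa, C1qb, C1qc or Col3a1 (0.706). The genes that made up most of the list differed less. Il1b stood at 16508 CPM in Gsdme-KO and 17928 CPM in WT (ratio 0.921, 0.907 to 0.935), Cxcl2 stood at 13951 CPM in Gsdme-KO and 13340.2 CPM in WT (ratio 1.05, 1.03 to 1.06), and Tnf stood at 4571 CPM in Gsdme-KO and 4468 CPM in WT (ratio 1.02, 0.992 to 1.05). Il1rn, the antagonist of interleukin 1, stood at 2625 CPM in Gsdme-KO and 3241 CPM in WT (ratio 0.8098, 0.7797 to 0.841).

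Among enzymes of lipid mediators, Ptgs2, which encodes cyclooxygenase 2 (ENSMUSG00000032487, chromosome 1, 150100031 to 150108227, plus strand), stood at 3509 CPM in Gsdme-KO and 5585 CPM in WT (ratio 0.628, 0.609 to 0.648). Its ratio was 0.564 in S100a8/a9-high neutrophils, 0.643 in the subset and 0.976 in all other cells. Alox5ap, which presents arachidonate to 5-lipoxygenase, stood at 683 CPM in Gsdme-KO and 550.1 CPM in WT (ratio 1.24, 1.14 to 1.35). Of the eicosanoid list 1 of 16 genes were at least 1.5-fold higher (Ptger2) and 2 lower (Ptgs2 and Hpgds), with a summed CPM of 5217 in Gsdme-KO and 7199 in WT (ratio 0.725, 0.706 to 0.744), of which Ptgs2 made up most. In the subset 4 of 14 were higher and 1 lower, against 394 and 597 of all 5090 genes compared there. The balance of the counts thus turned while the summed ratio was 0.728. F3, tissue factor, which starts coagulation, stood at 41.04 CPM in Gsdme-KO and 104 CPM in WT (ratio 0.396, 0.299 to 0.518), while its ratio in all other cells was 1.82. Of the NF-kB list 0 of 26 were higher and 1 lower, which was Ptgs2 again, with a summed CPM of 34244 in Gsdme-KO and 39976 in WT (ratio 0.857, 0.848 to 0.866). Nfkbia, which encodes the inhibitor of NF-kB, stood at 6278 CPM in Gsdme-KO and 7680.0 CPM in WT (ratio 0.817, 0.798 to 0.838).

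Heat shock genes stood lower in sum, with a summed CPM of 4697 in Gsdme-KO and 5822 in WT (ratio 0.807, 0.784 to 0.8299). Hspa8, a cytosolic chaperone gene, stood at 615 CPM in Gsdme-KO and 949.5 CPM in WT (ratio 0.647, 0.6003 to 0.698), and Hsp90aa1, another, stood at 666 CPM in Gsdme-KO and 939.9 CPM in WT (ratio 0.708, 0.658 to 0.762). Of 13 compared, 3 were at least 1.5-fold higher (Hspe1, Hspb1 and Bag3) and 1 lower (Hspa8), against 9.29% and 8.08% of all genes compared. The calls thus leaned the other way from the sum. In the subset 0 of 10 were higher and 6 lower, against 394 and 597 of all 5090 genes compared there. Of the glycolysis and hypoxia list 4 of 29 were lower and 0 higher (median -0.23), and the summed ratio of 0.834 stood at 0.949 in the subset.

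Of the list of lytic cell death, the process Gsdme takes part in, 1 of 17 genes was at least 1.5-fold higher and 2 lower, near the shares of all genes compared (9.29% and 8.08%). Pycard, the inflammasome adaptor gene, was higher (28.6 CPM in Gsdme-KO and 12.8 CPM in WT, ratio 2.23, 1.35 to 3.78), and Nlrc4 and Casp9 were lower, with ratios of 0.433 and 0.537. Gsdmd, the pore former of pyroptosis, stood at 35.6 CPM in Gsdme-KO and 38.5 CPM in WT (ratio 0.926, 0.653 to 1.31), and Nlrp3, the inflammasome sensor gene, stood at 5911 CPM in Gsdme-KO and 6102 CPM in WT (ratio 0.969, 0.944 to 0.995). None of 17 genes of the BCL2 family and none of 21 of the NADPH oxidase and redox list were past 1.5-fold either way. In the subset 0 of 15 BCL2 family genes were higher and 1 lower, and 3 of 20 of the redox list higher and 1 lower. Of all 5090 genes compared in the subset 394 were higher and 597 lower. Of the receptor and adhesion list 2 of 22 were higher, Fpr2 (297 CPM in Gsdme-KO and 179 CPM in WT) and Fcgr4 (66.4 CPM in Gsdme-KO and 42.8 CPM in WT), and 0 lower, near the 9.29% of all genes.

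Of the protease and inhibitor list 6 of 27 were at least 1.5-fold higher and 1 lower, against 9.29% and 8.08% of all genes. The higher ones were Mmp8, Slpi, Cst3, Timp1, Adamts1 and Serpinb1a. Adamts1, a secreted protease, stood at 46.98 CPM in Gsdme-KO and 7.48 CPM in WT (ratio 6.28, 3.55 to 11.96), with a ratio of 2.64 in the subset, and Timp1 had ratios of 3.03 here and 5.08 in all other cells. Endothelial markers summed to 244 CPM in Gsdme-KO and 104 CPM in WT, and smooth muscle markers to 85.3 and 37.96 CPM. In the subset the sums were 104 and 126 CPM for endothelial and 39.1 and 31.9 CPM for smooth muscle markers, and their part in these differences was not tested. The lower one was Mmp14, a membrane-bound metalloproteinase gene (70.7 CPM in Gsdme-KO and 119.8 CPM in WT, ratio 0.591, 0.472 to 0.736). Of MHC class I genes 5 of 15 were lower and 0 higher, and the summed ratio was 0.979 (0.9504 to 1.01), with B2m at 1567 CPM in Gsdme-KO and 1313 CPM in WT. The summed ratio was 0.921 (0.874 to 0.969) in the subset and 0.936 (0.889 to 0.986) in S100a8/a9-high neutrophils, both below 1. The tissue neutrophil list had 0 of 20 higher and 1 lower, the EGR and AP-1 list 0 of 26 higher and 1 lower, and the metabolic list 1 of 16 higher and 0 lower. Of the primary granule list 1 gene passed the floor and it was level.

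Several leading genes differed across the whole libraries. Vmn2r96, named as a vomeronasal receptor, had 1 UMI in Gsdme-KO and 207 in WT (ratio 0.00488, 0.000123 to 0.0275), and its ratio was 0.0218 in all other cells. Tpm3-rs7, named as a tropomyosin-related sequence, had ratios of 0.111 and 0.138, and its counts could be split with close copies. Slc22a4 had 0.261 and 0.146, and Zfp981 0.219 and 0.253. Pkd1l2 stood at 48.1 CPM in Gsdme-KO and 3.74 CPM in WT (ratio 12.8, 5.98 to 32.9), and its ratio in all other cells was 3.83. Depdc5, a regulator of the amino acid sensing arm of mTORC1, stood at 136 CPM in Gsdme-KO and 451 CPM in WT (ratio 0.302, 0.261 to 0.348), against a ratio of 1.09 in all other cells and 0.399 in S100a8/a9-high neutrophils. Sntb2 stood at 203 CPM in Gsdme-KO and 461 CPM in WT (ratio 0.4401, 0.389 to 0.497), against 0.718 in all other cells. Ppbp, a platelet chemokine gene, stood at 66.97 CPM in Gsdme-KO and 164 CPM in WT (ratio 0.409, 0.3295 to 0.506), and without cells that held any UMI of C1qa, C1qb, C1qc or Col3a1 its ratio was 0.889. Platelet markers summed to 148 CPM in Gsdme-KO and 292 CPM in WT, and their part in this difference was not tested.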

How the data were processed

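Aortas were digested to single cells and captured on BD Rhapsody, per the labels' protocols. The authors deposited whole-number counts per gene and barcode, not normalised. That they are UMIs follows from the platform and STARsolo. CASAVA 1.8, STARsolo and mm10 are named in the submitters' processing notes, and no source names the annotation. No total was under 500, so a minimum had been applied. Cells were kept with at least 500 UMIs, 250 genes and at most 25% mitochondrial UMIs. Of 31253 feature IDs 31184 matched GENCODE M21. Scrublet (scanpy 1.11.5) marked 1 Gsdme-KO and 0 WT cells and so had not worked, and doublets remain. Counts were summed per library into CPM, and ratios carry exact conditional binomial intervals, shares Clopper-Pearson intervals. Genes needed 30 UMIs and 10 CPM in the higher library. Leading genes needed 50 UMIs and 5% of cells and were ranked by the interval end nearest 1, and had at least 10% of the level of the highest comparator group. Uncharacterised gene models, ribosomal protein, mtDNA, globin and antigen receptor genes, Xist and Y-linked genes were not named. TMM factors came from edgeR 4.0.16 and size factors from DESeq2 1.42.0. Of 482 list genes 478 matched. Members and lists were chosen with earlier results of these data known. Intervals were tested on simulated independent counts, the model they assume, so this does not show that they fit the spread between cells. Some genes that met the naming rule are not reported here.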

Additional observations from a re-analysis of the deposited data

How the results depend on the processing

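The share of kept cells had a ratio of 0.939 (0.823 to 1.07) without cells that held any UMI of C1qa, C1qb, C1qc or Col3a1, against 0.839, and the other cell alternatives stayed within its interval. The 724 genes at least 1.5-fold higher in Gsdme-KO became 447 with cells thinned to 1000 UMIs, 2472 with no floor beyond 1 UMI in each library, 153 with a floor of 100 UMIs and 50 CPM and 394 in the stricter subset. The 630 lower ones became 1907 with no floor and 115 with the higher floor. Of genes that were higher in S100a8/a9-low than in S100a8/a9-high cells, 1572 in all, 656 were left without C1q or Col3a1 UMIs, 581 after thinning, 2496 with no floor, 582 with the higher floor and 361 in the subset. The 231 lower ones became 152 without those UMIs, 151 after thinning, 474 with no floor and 129 in the subset. The summed ratio of the secondary and tertiary granule list, 1.21, was 1.16 with at least 4 selection genes, 1.35 without C1q or Col3a1 UMIs, 1.16 as a mean over cells and 1.32 in the subset. That of immature neutrophils, 1.58, was 1.46 with the lower 1/2 of neutrophils, 1.696 with at least 4 genes, 1.75 without those UMIs, 1.75 after thinning and 1.85 in the subset. That of type I interferon, 0.829, was 0.872 with the lower 1/2, 0.782 without those UMIs and 0.784 as a mean over cells. The cause of these shifts was not tested, except that higher floors compare fewer genes. Among the 40 genes and 19 lists followed for Gsdme-KO over WT, none past 1.5-fold changed direction, and Il6, Ppbp, Vegfa and the sum of the immature list were under 1.5-fold in at least 1 setting. Between S100a8/a9-low and S100a8/a9-high cells, Msr1, Ccr2 and Lyz2 stood on the other side in the subset. Over 14 settings of the genes, 510 values lay within the interval of the reported ratio and 50 outside it, and of the lists 195 and 71. Over these alternatives the ratio of Gsdme, on 20 and 30 UMIs, ran from 0.234 to 0.795, and moves of over 1.5 times also reached Pkd1l2 (49.2 without C1q or Col3a1 UMIs), Chil3 (6.95 in the subset), Ifitm6 (1.54 without those UMIs), Sptbn1 (1.58), Zfp981 (0.507), Slc22a4 (0.405), Pik3c3 (0.162) and Rufy3 (0.215) in the subset, Atg16l1 (0.243 without those UMIs) and Vmn2r96, which rests on 1 UMI. No paired analysis was possible because each group had 1 library, and for the same reason no replicate could be left out.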
